A study of Mus musculus with 10 samples.

Results

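Cell death and the p53 response were examined in the P21 cerebellum through 9 genes: *Trp53*, *Mdm2*, *Cdkn1a*, *Ccng1*, *Bbc3*, *Bcl2l11*, *Bax*, *Bak1* and *Casp9*. They were chosen by name, and all 9 were found by their GENCODE M21 symbol among the 53447 genes listed in every library. All 9 are protein-coding, and all 9 were among the 17168 genes with at least 0.5 TPM (transcript abundance scaled to a fixed total per library after division by transcript length) in at least 5 of the 10 libraries. The tested mice were 5 *Dscam* del17/del17 mutants, homozygous for a spontaneous loss-of-function deletion within *Dscam* (the gene for an adhesion molecule of neurons), and they were set against 5 WT littermate controls. The labels give BALB/c as the strain of both genotypes, and the mutant line had been crossed with BALB/cCrSlc mice. The deletion is carried by every cell of the animal, so the whole cerebellum, with all its cell types, was mutant. Each mouse gave its own library. The study used males and females, which the labels do not tell apart.

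p53, the product of *Trp53*, is a transcription factor that is held at a low level by the ubiquitin ligase Mdm2 and accumulates after DNA damage or other stress. It then activates genes that arrest the cell cycle, such as *Cdkn1a*, and genes that promote death, such as *Bbc3* and *Bax*, and it activates *Mdm2* itself in a negative feedback. In the mitochondrial route of apoptosis, BH3-only proteins such as Puma and Bim engage the BCL2 family, Bax and Bak open the outer mitochondrial membrane, cytochrome c is released and the initiator caspase-9 is activated. Bax is known in the cerebellum for its part in the developmental death of neurons. Much of this control acts on proteins (p53 stability, Bax insertion, caspase cleavage), which mRNA levels do not measure.

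The p53 protein binds pairs of a decamer called the p53 half-site, which reads as purines, then C, a pair of A or T bases, G, and pyrimidines. This motif is its own reverse complement, so a search of the gene's strand covers both strands. It was searched in RefSeq promoter windows (GRCm38.p6) that run 250 bases before to 50 bases after each transcription start. The 9 genes matched 13 such windows, and 5 windows, each of another gene, held at least 1 exact half-site: those of *Trp53*, *Mdm2*, *Cdkn1a*, *Ccng1* and *Bax*. Among all 32851 windows 8.36% held one, and of all 27025 genes 9.55% had a window that held one. A pair of half-sites, with at most 1 mismatch in all and a spacer of at most 13 bases, was present for *Cdkn1a*, *Ccng1* and *Bax*, against 1.24% of all genes. The 5 stretches are shown because they hold the exact matches to the p53 motif. The genes were chosen by name and not by this motif, but several are known p53 targets, so their shares are not independent of it. Each stretch runs 5′ to 3′ on the strand of its gene with up to 30 flanking bases. The capitals mark the exact half-sites and, in *Bax* and *Ccng1*, the partner with 1 mismatch.
Cdkn1a, chr17:29090876-29090967, plus strand: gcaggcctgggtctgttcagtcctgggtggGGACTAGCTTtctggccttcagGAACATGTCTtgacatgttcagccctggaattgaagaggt
Ccng1, chr11:40755432-40755511, minus strand: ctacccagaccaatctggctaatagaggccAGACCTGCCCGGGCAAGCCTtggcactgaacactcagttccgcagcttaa
Bax, chr7:45467060-45467140, minus strand: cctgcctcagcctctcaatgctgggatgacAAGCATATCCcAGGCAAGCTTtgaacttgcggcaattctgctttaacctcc
Mdm2, chr10:117710905-117710974, minus strand: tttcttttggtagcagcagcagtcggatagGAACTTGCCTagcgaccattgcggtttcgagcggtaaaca
Trp53, chr11:69580254-69580323, plus strand: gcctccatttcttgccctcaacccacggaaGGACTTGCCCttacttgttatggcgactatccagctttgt

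In *Cdkn1a* both half-sites were exact, with a spacer of 12 bases, and the first began 73 bases upstream of the start. A decamer with 1 mismatch followed the second half-site directly, with a spacer of 0 bases, and is left in small letters above. With the second half-site it also meets the rule for a pair. In *Ccng1* the exact half-site lay next to one with 1 mismatch with a spacer of 0 bases, 185 bases upstream. In *Bax* the spacer was 1 base, and the exact half-site began 201 bases upstream. The single half-sites began 186 bases upstream in *Mdm2* and 75 bases upstream in *Trp53*. No exact half-site was present in the windows of *Bbc3*, *Bcl2l11*, *Bak1* and *Casp9*, or at the second *Cdkn1a* start, 2790 bases downstream of the first, which says only that these letters are not in these windows. A match is a description of the sequence and not a measured binding site.

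*Dscam* itself was at 5.11, 5.42, 4.53, 3.73 and 3.05 TPM in the mutants, against 8.04, 8.43, 6.79, 9.05 and 6.29 TPM in WT mice. The genotypes did not overlap, with a log2 fold change of −0.82 (95% interval −1.33 to −0.32, p = 0.0079 by exact two-sided permutation, the smallest it can give), although the adjusted p from limma was 0.779. The TPM of the listed genes summed to between 775148 and 805869 in the mutants and between 684771 and 838532 in WT mice. WT replicate 5 had the lowest sum and the fewest genes at 0.5 TPM or more (15623, against 17101 to 17763 in the other libraries). The mRNAs encoded by the mitochondrial genome summed to between 34717 and 44973 TPM in the mutants and between 15206 and 44670 TPM in WT mice, with WT replicates 3 (23124 TPM) and 5 (15206 TPM) below all other libraries. Markers of granule cells (summed TPM 1038 to 1239 in mutants, 978 to 1463 in WT) and Purkinje cells (2474 to 3030 in mutants, 2549 to 3232 in WT) were abundant. The 3 erythroid markers summed to 1122 to 1966 TPM in the mutants and 714 to 1215 TPM in WT mice, and 3 of 3 had log2 fold changes above 0. The 4 oligodendrocyte markers summed to 6261 to 7301 TPM in mutants and 4961 to 7399 TPM in WT. Also examined were markers of Bergmann glia and astrocytes (4), microglia (4), endothelium (3) and choroid plexus (3). Markers of brainstem and midbrain (3 of 6 tested) and forebrain (1 of 3 tested) were examined too. Of the Bergmann glia and astrocyte markers 3 had log2 fold changes above 0, while *Hopx* was at −0.48, with 4 mutants below the lowest WT mouse. Of all markers examined, 5 separated the genotypes. The granule cell marker *Neurod1* was lower in every mutant (295 to 320 TPM in mutants, 326 to 390 TPM in WT). The oligodendrocyte markers *Mobp* and *Mog*, the erythroid marker *Hbb-bs* and the brainstem marker *Dbh* (0.685 to 1.45 TPM in mutants, 0 to 0.458 TPM in WT) were higher in every mutant. Over all 17168 genes, 0.419% were higher and 0.798% lower in every mutant. Of the 4 granule cell markers, 3 had log2 fold changes below 0 and 1 above (*Gabra6*, 0.20). All 4 oligodendrocyte markers were above 0, with *Mbp* at 0.01. *Xist*, which is expressed from the inactive X chromosome of females, was at 65.6 TPM in mutant replicate 5 and at most 0.035 TPM in the other mutants, against 88.3 TPM in WT replicate 1 and at most 0.086 TPM in the other WT mice. Alternative fits used mitochondrial mRNA or *Xist* as a covariate, or rescaled the listed TPM to an equal sum. Why these levels differed, and the part of the marker differences in the values below, was not tested. In whole tissue, fewer cells of a type and less RNA per cell cannot be told apart.

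None of the 9 genes passed the test between the genotypes after adjustment. The share of all 17168 genes that passed an adjusted p of 0.05 (limma, Benjamini-Hochberg) was 0.0%, and the smallest adjusted p of any gene was 0.29. At an unadjusted p of 0.05, 0 of the 9 genes were called, against 2.29% of all genes called higher and 3.26% called lower in the mutants, 953 genes in all. In 6 of 24 alternatives at least 1 of the 9 was below that p: *Bbc3* in 4, *Mdm2* in 3, and *Trp53* and *Cdkn1a* in 1 each. Of all 17168 genes, 1028 were higher and 558 lower at that p without WT replicate 1 (*Bbc3*, *Mdm2*). Without WT replicate 2 (*Cdkn1a*) these were 811 and 823, and without mutant replicate 5 (*Bbc3*, *Trp53*, *Mdm2*) 403 and 618. They were 261 and 512 without mutant replicate 1 (*Bbc3*), and 586 and 508 with a replicate block (*Bbc3*). With protein-coding genes only (*Mdm2*) they were 517 and 439 of 13538. No gene of the 9 had values that separated the genotypes, whereas 0.419% of all genes were higher and 0.798% lower in every mutant than in any WT library. Of the 9, 4 had log2 fold changes above 0 (*Ccng1*, *Cdkn1a*, *Mdm2*, *Bcl2l11*) and 5 below 0 (*Bbc3*, *Trp53*, *Bak1*, *Bax*, *Casp9*), with a median of −0.01. Over all genes the median was 0.05, and 56.0% of the genes were above 0. The split of all genes at an unadjusted p of 0.05, 394 higher and 559 lower, became 517 higher and 439 lower when only protein-coding genes were kept and rescaled, and 583 higher and 476 lower when mitochondrially encoded genes were left out.

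**Figure D1:**
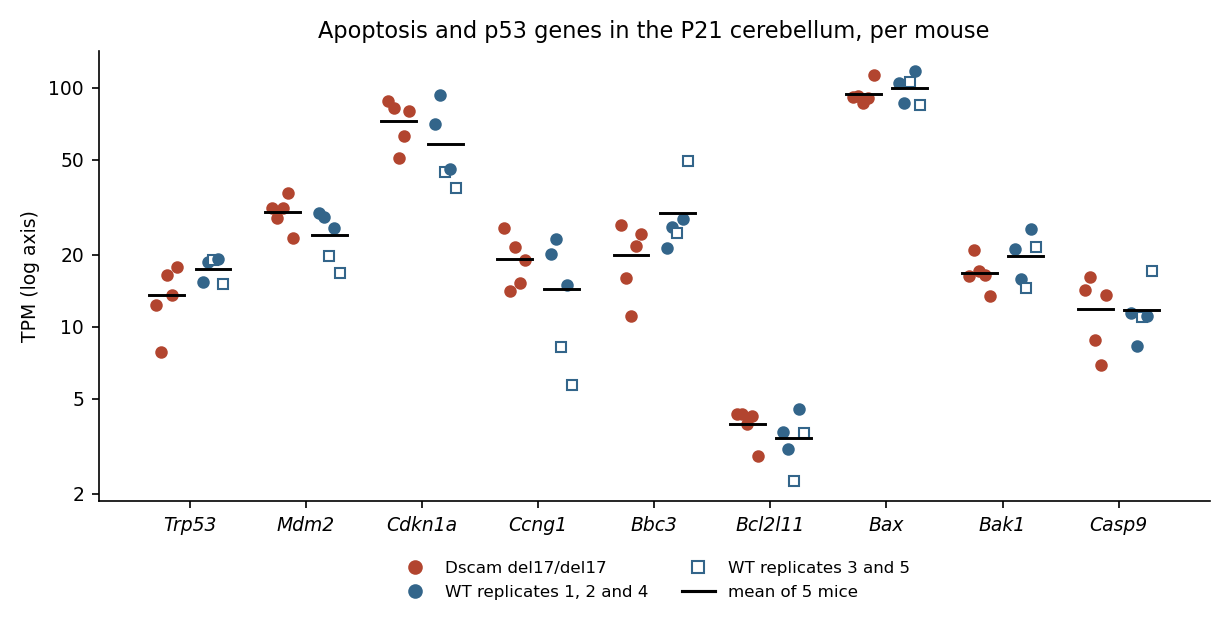
TPM of the 9 genes in each library (vertical axis), with *Dscam* del17/del17 mice at the left and WT mice at the right for each gene. Points are single mice, n = 5 each, with the mean of each genotype marked, and the ranges of the genotypes overlap for all 9 genes. In *Trp53* 3 mutants lie below the lowest WT mouse, and in *Mdm2* 3 mutants lie above the highest.

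*Trp53* (chromosome 11, plus strand, 69580359 to 69591873, GRCm38) encodes p53. It was at 12.4, 7.81, 16.5, 13.5 and 17.8 TPM in the mutants, against 15.3, 18.6, 19.0, 19.2 and 15.1 TPM in WT mice. All 5 mutants lay below the WT median and 3 of them below the lowest WT mouse, while mutant replicates 3 and 5 lay inside the WT range. The mean was 13.6 ± 3.91 TPM in mutants and 17.4 ± 2.02 TPM in WT (SD, n = 5 each). The log2 fold change was −0.40 (95% interval −0.88 to 0.07, adjusted p = 0.779 by limma), and the exact permutation test gave p = 0.0952. Without mutant replicate 2, the lowest library, it was −0.22.

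*Mdm2* (chromosome 10, minus strand, 117688875 to 117710758) encodes the ubiquitin ligase that removes p53 and is itself a p53 target. It was at 31.5, 28.5, 31.4, 36.2 and 23.5 TPM in the mutants, against 29.8, 28.7, 19.7, 25.9 and 16.8 TPM in WT mice. In 3 mutants it exceeded the highest WT value, and the lowest WT values were those of replicates 3 and 5. The mean was 30.2 ± 4.68 TPM in mutants and 24.2 ± 5.67 TPM in WT (SD, n = 5 each), with a log2 fold change of 0.34 (95% interval −0.06 to 0.74, adjusted p = 0.779 by limma) and p = 0.143 by exact permutation. Thus the fold changes of *Trp53* and *Mdm2* had opposite signs, and neither passed the test.

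*Cdkn1a* (chromosome 17, plus strand, 29090976 to 29100727) encodes p21, an inhibitor of cyclin-dependent kinases and the best known p53 target. It was at 87.9, 82.4, 50.6, 62.6 and 80.1 TPM in the mutants, against 70.8, 93.2, 44.2, 45.6 and 38.0 TPM in WT mice. The highest library was WT replicate 2, and 3 WT mice lay below all mutants. The mean was 72.7 ± 15.6 TPM in mutants and 58.4 ± 23.2 TPM in WT (SD, n = 5 each), and the log2 fold change was 0.37 (95% interval −0.17 to 0.91, adjusted p = 0.779 by limma, p = 0.222 by exact permutation). Without WT replicate 2 it was 0.56.

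*Ccng1* (chromosome 11, minus strand, 40748552 to 40755311) encodes cyclin G1, a p53 target that recruits a phosphatase to Mdm2. It was at 25.9, 14.2, 21.5, 15.3 and 19.0 TPM in the mutants, against 20.1, 23.3, 8.23, 14.95 and 5.71 TPM in WT mice. The highest library was 4.54 times the lowest, the widest span of the 9 genes, and WT replicates 3 and 5 were the only libraries under 10 TPM. The mean was 19.2 ± 4.77 TPM in mutants and 14.4 ± 7.50 TPM in WT (SD, n = 5 each). The log2 fold change of 0.56 was the highest of the 9, with a 95% interval of −0.24 to 1.35 (adjusted p = 0.779 by limma, p = 0.246 by exact permutation).

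The fold changes of these p53 targets were smaller without WT replicates 3 and 5. These were the lowest WT libraries for each of these genes, so leaving them out could only lower the fold changes. They were also the lowest in mitochondrial mRNA, so the covariate below is not a separate check. With these libraries left out, the log2 fold change was −0.03 for *Ccng1*, 0.09 for *Cdkn1a* and 0.09 for *Mdm2*, where the median of all genes was −0.09. With the summed mitochondrial mRNA as a covariate it was −0.025 for *Ccng1*, 0.08 for *Cdkn1a* and 0.06 for *Mdm2*, where the median of all genes was −0.10. Without WT replicate 5 alone it was 0.27 for *Ccng1*, 0.24 for *Cdkn1a* and 0.22 for *Mdm2*. The fold change of *Trp53* was −0.43 without both libraries and −0.42 with the covariate, and that of *Bbc3*, described next, was −0.39 without both libraries and −0.32 with the covariate, against −0.58 with neither change. The plot against mitochondrial mRNA shows that libraries low in these mRNAs were also low in *Ccng1*, *Cdkn1a* and *Mdm2*; the 10 points share their scaling to TPM, and whether tissue, RNA quality or library preparation was involved was not tested.

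**Figure D2:**
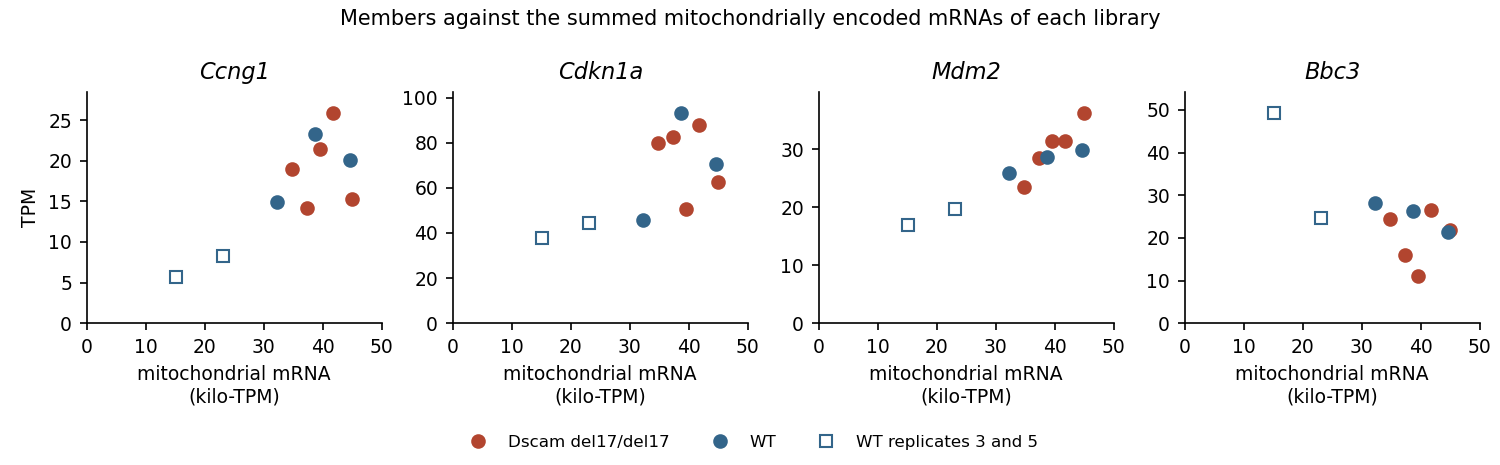
TPM of *Ccng1*, *Cdkn1a*, *Mdm2* and *Bbc3* (vertical axes, linear) against the summed TPM of mitochondrially encoded mRNAs in the same library (horizontal axes, in kilo-TPM). Each point is a mouse, with *Dscam* del17/del17 in red and WT in blue, and the open squares, WT replicates 3 and 5, lie lowest for *Ccng1*, *Cdkn1a* (replicates 3 and 5 at 44.2 and 38.0 TPM) and *Mdm2*, while WT replicate 5 lies highest for *Bbc3* (49.3 TPM).

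*Bbc3* (chromosome 7, plus strand, 16308393 to 16318205) encodes Puma, a BH3-only protein and a p53 target. It was at 26.6, 16.0, 11.1, 21.8 and 24.4 TPM in the mutants, against 21.3, 26.2, 24.7, 28.1 and 49.3 TPM in WT mice. Its sign was opposite to that of the p53 targets *Mdm2*, *Cdkn1a* and *Ccng1*, and WT replicate 5 was far above the rest. The mean was 19.97 ± 6.36 TPM in mutants and 29.9 ± 11.1 TPM in WT (SD, n = 5 each), and the log2 fold change of −0.58 (95% interval −1.19 to 0.02) was the lowest of the 9. It had an unadjusted limma p of 0.0567, an adjusted p of 0.779 and p = 0.111 by exact permutation. The fold change was −0.39 without WT replicate 5 and −0.39 without mutant replicate 3, the lowest library.

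*Bcl2l11* (chromosome 2, plus strand, 128126038 to 128162547) encodes Bim, a BH3-only protein induced in neurons that lose trophic support. It was at 4.29, 4.30, 3.94, 4.23 and 2.89 TPM in the mutants, against 3.61, 3.08, 2.27, 4.51 and 3.58 TPM in WT mice. Its level was the lowest of the 9, and 4 mutants lay above 4 of the WT mice while the highest library was a WT one. The log2 fold change was 0.22 (95% interval −0.36 to 0.80, adjusted p = 0.853 by limma, p = 0.294 by exact permutation). It was 0.08 without WT replicate 3.

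*Bax* (chromosome 7, minus strand, 45461697 to 45466898) encodes the effector that opens the outer mitochondrial membrane in neurons. It was at 91.1, 92.0, 86.3, 90.5 and 112.8 TPM in the mutants, against 104.1, 86.2, 105.4, 117.2 and 84.8 TPM in WT mice. It varied least, with a highest library 1.38 times the lowest. The mean was 94.5 ± 10.5 TPM in mutants and 99.5 ± 13.8 TPM in WT (SD, n = 5 each), and the log2 fold change was −0.07 (95% interval −0.33 to 0.19, adjusted p = 0.889 by limma, p = 0.548 by exact permutation). With single libraries left out it ran from −0.14 (without mutant replicate 5) to −0.01 (without WT replicate 4). Exons of *Bax* overlap those of *Gm45808* on the same strand, and reads of the overlap cannot be told apart in TPM. *Gm45808* was listed at 26.9 to 46.7 TPM in the mutants and 30.2 to 41.2 TPM in WT, and its sum with *Bax* was 127.5 ± 18.3 TPM in mutants and 136.6 ± 17.4 TPM in WT (SD, n = 5 each).

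*Bak1* (chromosome 17, minus strand, 27019810 to 27029009) encodes Bak, the other pore-forming effector. It was at 16.4, 20.9, 17.1, 16.4 and 13.4 TPM in the mutants, against 21.2, 15.8, 14.6, 25.5 and 21.6 TPM in WT mice. The 3 highest libraries were WT ones, while WT replicates 2 and 3 each lay below 4 of the mutants. The log2 fold change was −0.21 (95% interval −0.62 to 0.20, adjusted p = 0.796 by limma, p = 0.270 by exact permutation). It was −0.11 without WT replicate 4 and −0.13 without mutant replicate 5. *Bak1* overlaps *Ggnbp1* on the opposite strand (3.87 to 5.70 TPM in mutants, 4.95 to 14.6 TPM in WT), and whether the strand was used in the quantification is not given in the sources used here.

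*Casp9* (chromosome 4, plus strand, 141793612 to 141815976) encodes the initiator caspase that is activated on the apoptosome. It was at 14.2, 16.1, 8.76, 6.91 and 13.5 TPM in the mutants, against 11.4, 8.30, 10.9, 11.1 and 17.1 TPM in WT mice. In 3 mutants it was above 4 of the WT mice, and mutant replicate 4 was the lowest library. The means were 11.9 ± 3.87 TPM in mutants and 11.7 ± 3.21 TPM in WT (SD, n = 5 each). The log2 fold change was −0.01 (95% interval −0.60 to 0.57, adjusted p = 0.991 by limma, p = 0.952 by exact permutation), so that changes of that size in either direction were not resolved. The sign changed without mutant replicate 3 (0.08), mutant replicate 4 (0.16) or WT replicate 5 (0.13). The 9 exact permutation tests were not adjusted for each other.

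**Figure D3:**
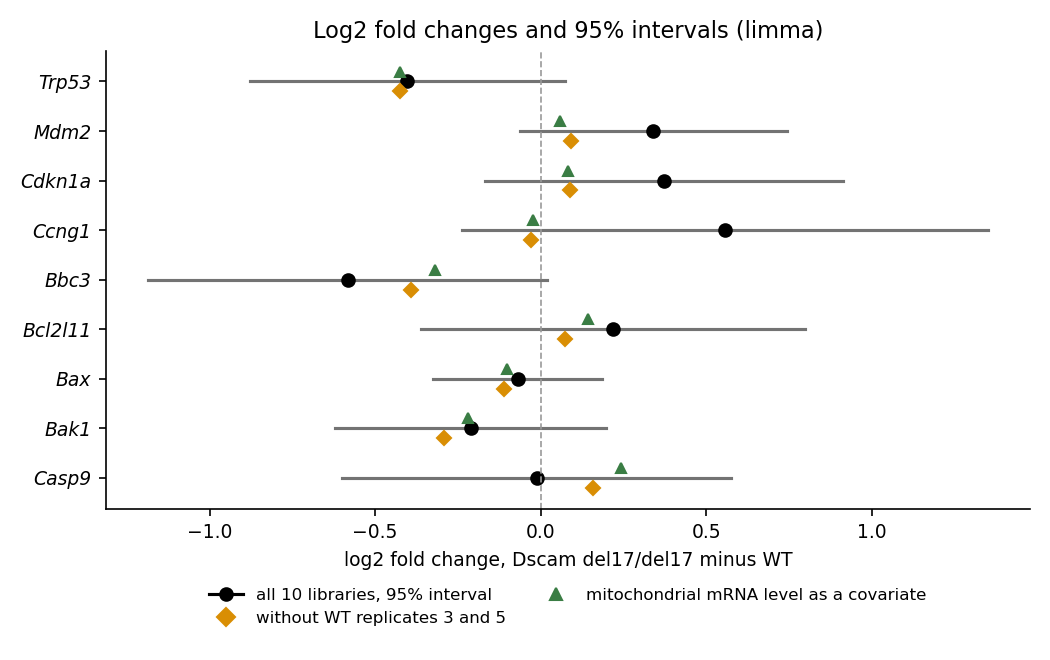
Log2 fold change of each of the 9 genes, *Dscam* del17/del17 minus WT (points), with the 95% interval of the limma fit (lines). All 9 intervals include 0, and the fold changes run from −0.58 for *Bbc3* to 0.56 for *Ccng1*. The median of all 17168 genes tested was 0.05.

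Levels of the 9 genes could be compared because TPM are divided by transcript length. The mean over the 10 libraries was 97.0 TPM for *Bax*, 65.5 TPM for *Cdkn1a*, 27.2 TPM for *Mdm2*, 24.9 TPM for *Bbc3*, 18.3 TPM for *Bak1*, 16.8 TPM for *Ccng1*, 15.5 TPM for *Trp53*, 11.8 TPM for *Casp9* and 3.67 TPM for *Bcl2l11*. By mean level *Bax* ranked 1321 and *Bcl2l11* 12197 among the 17168 genes. *Cdkn1a* was above *Mdm2*, and *Casp9* above *Bcl2l11*, in 10 of 10 libraries, and *Bax* was above *Cdkn1a* in 9 of 10. The genes between them in this order did not keep it from library to library, with *Mdm2* above *Bbc3* in 6, *Bbc3* above *Bak1* in 8, *Bak1* above *Ccng1* in 6, *Ccng1* above *Trp53* in 7 and *Trp53* above *Casp9* in 7 of 10 libraries. WT replicate 5 was the lowest library for 4 genes (*Bax*, *Mdm2*, *Ccng1*, *Cdkn1a*) and the highest for 2 (*Casp9*, *Bbc3*), and WT replicate 4 was the highest for 4 (*Trp53*, *Bax*, *Bak1*, *Bcl2l11*).

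The rest of the pathway was read from 9 lists with 109 genes, of which 84 passed the filter on low values. Of these 84, 0 passed the test in either direction, 47 had log2 fold changes above 0 and 37 below, and their median of 0.05 equalled that of all genes to that precision. At an unadjusted p of 0.05, 1 of the 84 was higher (*Zmat3*) and 2 were lower (*Casp6*, *Jun*), and 0 separated the genotypes. Over all 17168 genes, 2.29% were higher and 3.26% lower at that p by limma. The genotypes were separated in 0.419% (higher) and 0.798% (lower) of all genes. With mitochondrial mRNA as a covariate, which put the median of all genes at −0.10, the list medians were −0.19 for the apoptosome and caspases, −0.06 for inhibitors of apoptosis, −0.17 for p53 family members and regulators and −0.15 for other p53 targets, all above 0 without it. Without WT replicates 3 and 5, where the median of all genes was −0.09, they were −0.16 for the apoptosome and caspases, −0.15 for p53 family members and regulators and −0.15 for other p53 targets.

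Of 30 other p53 targets, 26 were tested, with 16 above and 10 below 0 and a median of 0.06. *Zmat3*, which encodes an RNA-binding zinc finger protein, had the smallest p of this list. It was at 11.8, 14.9, 12.6, 12.6 and 10.2 TPM in the mutants, against 9.996, 11.3, 8.18, 8.64 and 7.76 TPM in WT mice, and 4 mutants exceeded the highest WT library. Its log2 fold change was 0.43 (95% interval 0.05 to 0.82, unadjusted p = 0.0291 and adjusted p = 0.779 by limma). *Ddit4*, an inhibitor of mTORC1 and the most abundant gene of the list, was at 111.3 ± 24.3 TPM in mutants and 100.4 ± 21.1 TPM in WT (SD, n = 5 each). Of 16 p53 family members and regulators, 13 were tested, with 7 above and 6 below 0. *Trp73*, a p53 homologue, was at 2.46 ± 0.747 TPM in mutants and 1.47 ± 0.249 TPM in WT (SD, n = 5 each, log2 fold change 0.67, adjusted p = 0.779 by limma), with 4 mutants over the highest WT library. The acetyltransferase gene *Kat5* was the most abundant of that list, at 62.0 ± 5.45 TPM in mutants and 69.3 ± 7.01 TPM in WT (SD, n = 5 each).

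Among the upstream inducers of BH3-only genes, 7 of 8 were tested, with 3 above and 4 below 0 and a median of −0.18. *Jun*, whose product drives *Bcl2l11* transcription in neurons, was at 32.3, 18.8, 31.5, 29.4 and 55.5 TPM in the mutants, against 37.1, 37.0, 50.3, 62.0 and 59.6 TPM in WT mice. It was below every WT library in 4 mutants, with a log2 fold change of −0.60 (95% interval −1.17 to −0.04, unadjusted p = 0.0384 and adjusted p = 0.779 by limma). The transcription factor gene *Foxo3* was at 52.6 ± 7.09 TPM in mutants and 59.6 ± 7.19 TPM in WT (SD, n = 5 each).

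The 4 pro-survival BCL2 genes tested, of 8, had 3 fold changes above 0 and a median of 0.14. That median was −0.014 with mitochondrial mRNA as a covariate and −0.017 without WT replicates 3 and 5. *Bcl2l1*, which encodes Bcl-xL, was at 124.5 ± 7.15 TPM in mutants and 112.2 ± 18.6 TPM in WT, and *Bcl2* at 3.50 ± 0.965 TPM in mutants and 2.58 ± 0.850 TPM in WT (SD, n = 5 each). Of 9 other pro-apoptotic BCL2 genes 7 were tested, with 3 above and 4 below 0. *Bad* was at 62.6 ± 4.81 TPM in mutants and 71.1 ± 8.30 TPM in WT, and the neuronal BH3-only gene *Hrk* at 0.352 ± 0.290 TPM in mutants and 0.790 ± 0.261 TPM in WT (SD, n = 5 each). The log2 fold change of *Hrk* was −1.10 (adjusted p = 0.779 by limma), at a level close to the filter, which it passed mainly through its WT libraries.

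All 13 genes of the apoptosome and caspase list were tested, with 7 above and 6 below 0 and a median of 0.08. The executioner caspase gene *Casp6* was at 2.04 ± 1.32 TPM in mutants and 4.19 ± 1.45 TPM in WT (SD, n = 5 each), a log2 fold change of −1.17 (95% interval −2.23 to −0.11, unadjusted p = 0.0333 and adjusted p = 0.779 by limma). *Cycs*, the gene for cytochrome c, was at 70.3 ± 11.4 TPM in mutants and 62.1 ± 31.1 TPM in WT (SD, n = 5 each). Of 6 inhibitors of apoptosis 4 were tested, 3 of them above 0, and the ubiquitin ligase gene *Birc2* was at 25.4 ± 3.19 TPM in mutants and 20.1 ± 4.79 TPM in WT (SD, n = 5 each). Of 9 death receptor genes 6 were tested, with 2 above and 4 below 0. The receptor gene *Tnfrsf1a* was at 7.92 ± 3.03 TPM in mutants and 7.25 ± 3.09 TPM in WT, and the kinase gene *Ripk1* at 1.60 ± 0.724 TPM in mutants and 2.97 ± 1.38 TPM in WT (SD, n = 5 each).

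Cell division genes, which p21 restrains, were mostly at a low level, and 4 of 10 passed the filter, 3 of them with fold changes above 0. *Pcna* was at 51.5 ± 5.44 TPM in mutants and 50.4 ± 10.3 TPM in WT, and *Mcm3* at 2.10 ± 0.196 TPM in mutants and 1.46 ± 0.660 TPM in WT (SD, n = 5 each). None of the genes named from these lists had an adjusted p below 0.779.

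**Figure D4:**
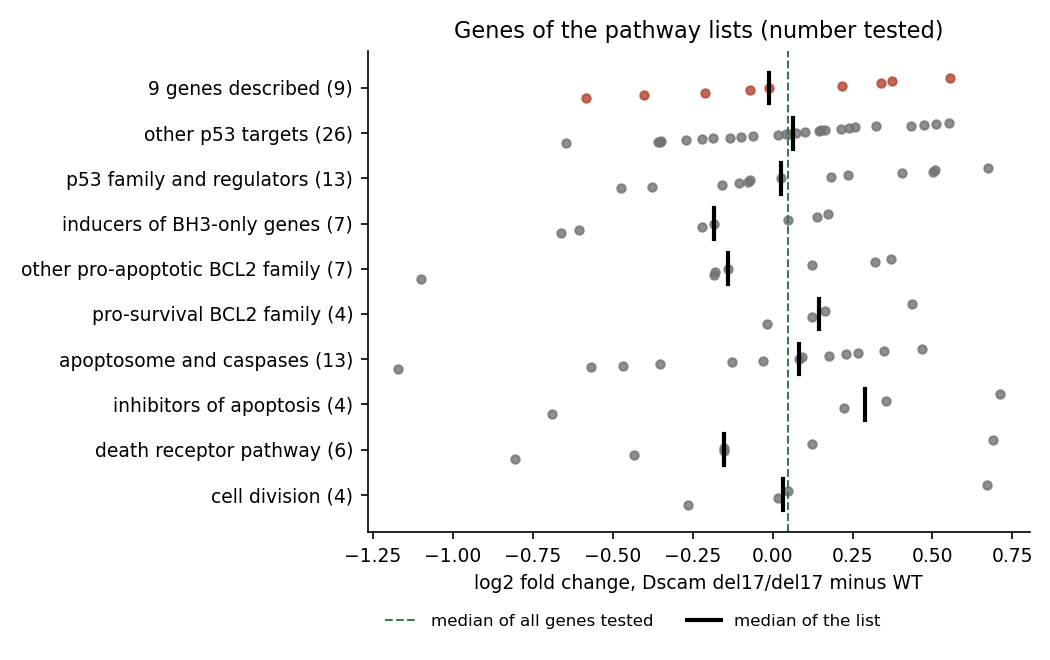
Log2 fold change, *Dscam* del17/del17 minus WT, of the 9 genes (red) and of the tested genes of each pathway list (grey), with the number tested in parentheses. Black bars are the list medians, which run from −0.18 (inducers of BH3-only genes) to 0.29 (inhibitors of apoptosis, −0.06 with mitochondrial mRNA as a covariate), and the dashed line is the median of all genes tested (0.05).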

How the data were processed

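RNA from whole cerebella of 5 *Dscam* del17/del17 and 5 WT mice was made into libraries by the authors with a NEBNext directional kit and sequenced on the Illumina NovaSeq. Reads were trimmed with Trimmomatic, aligned to GRCm38 with HISAT2 and quantified with StringTie. The deposited values are TPM per Ensembl gene. TPM hold no read numbers. Sequencing depth is therefore unknown, and counting intervals are not given. The annotation release and strand setting are not given in the sources used here, and read counts were not analysed here.

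Genes with at least 0.5 TPM in at least 5 of 10 libraries were kept, 0.1 TPM was added and log2 values were compared in limma (version 3.58.1, R 4.3.3) with a variance trend and Benjamini-Hochberg adjustment over all 17168 genes. The added 0.1 TPM draws the fold changes of low genes toward 0. Single genes were also compared by exact permutation (two-sided, 252 ways to divide the libraries). p-values measure the spread between single mice. GENCODE M21 lacked 191 of 53447 identifiers. The code was tested on simulated data, and 24 alternatives were run.

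The 9 genes and the lists were chosen with earlier results of these data known. Named from each list were its most abundant gene and the gene with the smallest p.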

Additional observations from a re-analysis of the deposited data

Results flagged for a closer look

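In 5 of 54 groups of 5 libraries examined, 1 library lay far from the other 4 of its genotype (about 2.7 such groups are given by chance). *Bax* was at 112.8 TPM in mutant replicate 5, where the next mutant was at 92.0 TPM. *Bcl2l11* was at 2.89 TPM in the same mouse, where the next lowest mutant was at 3.94 TPM. *Hrk* was at 0.851 TPM in that mouse too, where the next mutant was at 0.356 TPM. These 3 values come from the only mutant with *Xist* (65.6 TPM, at most 0.035 TPM in the other mutants). The only WT mouse with *Xist*, replicate 1 (88.3 TPM), was not flagged for any gene, and a part of sex was not tested. *Bbc3* was at 49.3 TPM in WT replicate 5, where the next WT mouse was at 28.1 TPM. *Hrk* was at 0.335 TPM in WT replicate 2, where the next lowest WT mouse was at 0.821 TPM.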

How the results depend on the processing

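Over 24 alternatives the count of genes that passed was 0, except 4 without the variance trend (*Gm44518*, *Gm5781*, *Mir3102*, *Vipr1*, named after their values were seen) and 0 to 1 when single replicates were left out (*1500004A13Rik* without mutant replicate 4). None is among the 9 genes or the pathway lists. Genes with an unadjusted p under 0.05 numbered 704 to 1634 with single replicates left out. *Casp9* changed sign with mitochondrial genes left out (0.001), with mitochondrial mRNA as a covariate (0.24), with array weights (0.065), without WT replicates 3 and 5 (0.16) and with single replicates left out (−0.14 to 0.16). With mitochondrial mRNA as a covariate, the log2 fold change was −0.025 for *Ccng1*, −0.26 for *Cycs* and −0.12 for *Pcna*. Without WT replicates 3 and 5 it was −0.031 for *Ccng1*, −0.16 for *Cycs*, −0.016 for *Ddit4*, −0.13 for *Pcna* and −0.035 for *Tnfrsf1a*. *Pcna* was at −0.014 with array weights. With single replicates left out *Pcna* ran from −0.032 to 0.145 and *Tnfrsf1a* from −0.062 to 0.387. The cause of these changes was not tested. The other 7 of the 9 genes kept their sign under all 24 alternatives, as did *Dscam* (−0.97 to −0.71). With a replicate block 0 genes passed and 1094 had an unadjusted p under 0.05, and the unadjusted p was 0.032 for *Bbc3* (adjusted p = 0.717 by limma), against 0.0567 without the block. With 5 libraries of each genotype under the same numbers, a block cannot move a fold change. Same-numbered libraries correlated at 0.008 to 0.098, and 3 of 10 correlated best with their own number, so the numbers were not used as pairs. *Casp6*, *Hrk*, *Mcm3* and *Ripk1* had no value when at least 1 TPM was required in all 10 libraries. TPM without read numbers, 5 mice a genotype and a median SE of 0.25 over the 9 genes limit what could be resolved.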

Other observations

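The balance of *Bax* to *Bcl2l1*, whose products promote and oppose opening of the mitochondrial membrane, was computed after the values were seen. Exact two-sided permutation of its log2 values gave p = 0.0714, which is not adjusted and was also computed after the values were seen. The ratio of TPM was 0.692, 0.725, 0.676, 0.803 and 0.914 in the mutants, against 0.880, 0.750, 0.928, 0.885 and 1.04 in WT mice. The highest ratio was in WT replicate 5, the library with the lowest *Bcl2l1* (81.7 TPM). The mean was 0.762 ± 0.0979 in mutants and 0.896 ± 0.103 in WT (SD, n = 5 each), and 3 of 5 mutants lay below the lowest WT mouse.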
